A study of Rattus norvegicus with 6 samples.

Results

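The constitutive proteasome genes were measured here as 37 probes of 35 genes, out of 30367 probes on a rat expression array. They were chosen by name alone, as every non-control probe whose gene name in the array files is Psma, Psmb, Psmc or Psmd followed by a number, leaving out the immunoproteasome genes Psmb8, Psmb9 and Psmb10. The core particle had 16 probes of 15 genes and the regulatory particle 21 probes of 20 genes. For the 34 probes whose accession matched RefSeq, the gene name in the files is still the current one. Another 4 probes lie outside the naming rule although RefSeq now lists them as subunits, namely 1 probe of Psma3 under its older name Psma3l and 3 dim probes of Psma8.

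RNA came from the hippocampus of male Wistar rats in which both common carotid arteries had been permanently tied, a procedure abbreviated BCCAo that leaves the forebrain chronically short of blood. Pooled RNA was hybridised to 6 one-colour arrays, namely 1 for the control and 1 for each of 5 times after BCCAo, at day 21, 35, 45, 55 and 70. The labels give ages of 12, 13, 14, 15, 16 and 17 weeks for these groups in that order, which do not follow the intervals between the days, and a free-text line calls all of them twelve-week-old. The labels name no allele and no drug other than the isoflurane anaesthesia of the ligation. The labels do not say how many animals were pooled or whether the control had a sham operation. With 1 array per group there was no replicate check of any difference, no spread between animals and no test.

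The control, day 21 and day 35 arrays shared one slide and the day 45, 55 and 70 arrays another, so the later days against the control cannot be told apart from the change of slide. Levels are the log2 processed signal minus the 75th percentile of the same array, and differences are log2 values of one array minus another for the same probe. The 75th percentile was 1243 to 1504 intensity units, and 74.5 to 80.2% of spots were well above background. Among probes printed 10 times, the spread between spots alone gave an SD of 0.08 for a difference between 2 arrays. In pooled tissue RNA, fewer cells of a type and less RNA per cell cannot be told apart. Markers of hippocampal pyramidal and granule cells were detected on all arrays, with a summed signal between 0.944 and 1.25 times the control.

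The 26S proteasome degrades proteins tagged with ubiquitin. Its barrel-shaped core has outer rings of alpha subunits, encoded by Psma genes, which gate the entrance, and inner rings of beta subunits, encoded by Psmb genes, of which Psmb5, Psmb6 and Psmb7 carry the cutting sites. The regulatory particle caps the core. Its Psmc subunits form a ring of ATPases that unfold the substrate, and its Psmd subunits hold the scaffold, ubiquitin receptors and a deubiquitinase. In neurons the proteasome turns over synaptic and damaged proteins. In immune cells and in tissues exposed to interferon, Psmb8, Psmb9 and Psmb10 replace the constitutive catalytic subunits to form the immunoproteasome.

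The cutting subunits and their replacements are the pairs whose signals are compared later, so the array's 60-base probe sequences are shown for Psmb5, Psmb6, Psmb7, Psmb8 and Psmb9, to show what each signal reads. They are printed 5′ to 3′ in lower case as the array files give them, with rn4 coordinates and strand, and no base is marked. Exon annotation of that build was not used here. The Psmb7 coordinates span far more genome than the probe's own length, so that probe crosses at least 1 exon junction.
Psmb5, chr15:32690134-32690193, minus strand: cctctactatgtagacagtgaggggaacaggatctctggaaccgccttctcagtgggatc
Psmb6, chr10:57371368-57371427, plus strand: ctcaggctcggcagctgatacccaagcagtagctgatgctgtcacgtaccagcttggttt
Psmb7, chr3:18413231-18433105, minus strand: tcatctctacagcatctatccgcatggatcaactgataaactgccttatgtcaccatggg
Psmb8, chr20:4787980-4788039, minus strand: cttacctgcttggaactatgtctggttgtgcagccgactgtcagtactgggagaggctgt
Psmb9, chr20:4806341-4806400, plus strand: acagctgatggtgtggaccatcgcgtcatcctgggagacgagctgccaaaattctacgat

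The constitutive subunits stayed close to the control signal at every time. No member differed from the control by 2-fold on any day, whereas 5.44, 2.11, 7.6, 6.48 and 8.91% of all probes compared did so at days 21, 35, 45, 55 and 70. Of the 36 members well above background on all 6 arrays, however, 31 were among the brightest 6773 of the 20317 such probes, here called the bright probes. Only 0.945, 0.221, 0.118, 0.0591 and 0.103% of the bright probes were past 2-fold on those days, so a count of 0 among the members is near their share. Quantile normalization put 1 member, the dimmer Psmb11 probe, past 2-fold at days 55 and 70, where it has only a bound. The median difference over the members was -0.09 at day 21, 0.02 at day 35, 0.01 at day 45, -0.06 at day 55 and 0.05 at day 70, against -0.06, -0.04, -0.08, -0.05 and -0.05 for all probes. The members' medians at day 35 and later moved with the scaling, and centring each array on its median gave 0.09 at day 35, 0.13 at day 45, 0.02 at day 55 and 0.14 at day 70. The same centring moved the median of all probes to 0.03 at day 45 from -0.08, so the later days are read against all probes and within the second slide.

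The spread of a member over the 6 arrays was smaller than for the array as a whole and close to that of the bright probes. The median range from the lowest to the highest array was 0.258 for the members, 0.431 for all 20317 probes well above background on the 6 arrays and 0.284 for the bright probes. Core and regulatory probes had median ranges of 0.25 and 0.266. Of the members outside the bright probes, 4 were of middle brightness and 1, a Psmb11 probe, was among the dimmest 6772.

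**Figure D1:**
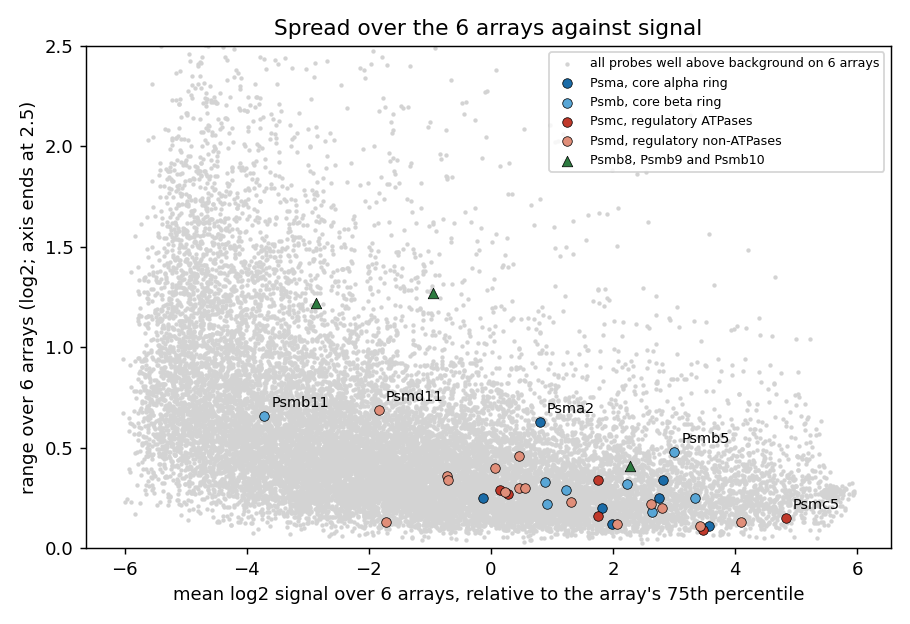
Range over the 6 arrays (log2) against the mean log2 signal relative to the array's 75th percentile, for every probe well above background on all 6 arrays (grey) and for the proteasome probes by family. Most members lie at high signal and below a range of 0.5, Psma2, Psmb11 and Psmd11 lie above it, and Psmb8 and Psmb9 exceed 1.

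Members past a 1.2-fold difference from the control were few. At day 21, 2 were higher and 3 lower, while 17.6% of all probes were higher and 23.9% lower by that amount. Day 35 had 0 members past 1.2-fold in either direction, against 8.57% of probes higher and 19.7% lower. Day 45 had 0 higher and 1 lower, with 4.56 and 32.6% of all probes, and day 55 had 2 higher and 4 lower, with 8.94 and 26.3%. Day 70 had 1 higher and 1 lower, against 6.58 and 28.3% of all probes. Each count of members was a smaller share than that of all probes. Among the bright probes, 13.9, 5.77, 2.83, 4.92 and 5.65% were higher by that amount on the days in order, while 11.5, 4.96, 6.29, 6.6 and 3.29% were lower. Against these the members' shares were smaller at days 21, 35, 45 and 70, but at day 55 the members' 5.41% higher and 10.8% lower were larger. Both members higher at day 55 were Psmb11 probes, at 0.38 and 0.58, which lie outside the bright probes. The dimmer one, also the 1 higher at day 70, was well above background only at days 55 and 70. It was therefore compared with the control only where it was high, and its values are bounds. Of the 4 lower, Psmd11 at -0.39 and 1 Psmd9 probe at -0.31 also lie outside the bright probes, while Psmb5 and Psmd13 were at -0.32 and -0.29. Neither the 5.41% nor the 10.8% is thus read against the bright shares.

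**Figure D2:**
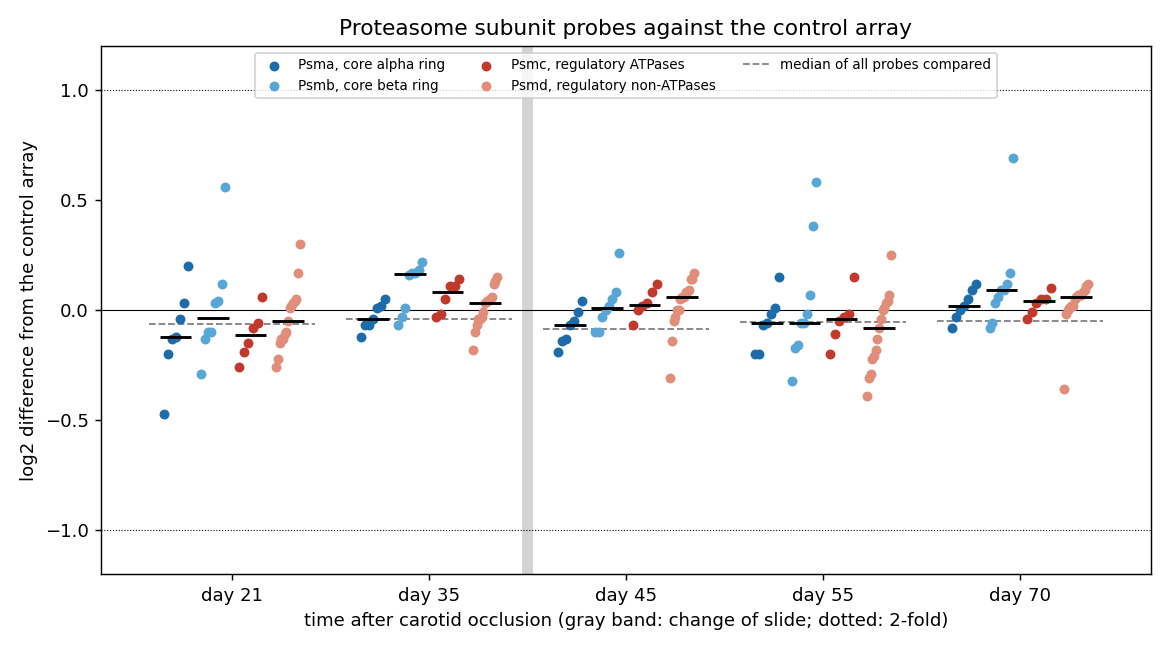
Log2 difference of each proteasome probe from the control array at each day, by family, with black bars for family medians and dashed lines for the median of all probes compared; dotted lines mark 2-fold and the gray band the change of slide. Every member lies between the dotted lines, and the points farthest from zero belong to Psma2, Psmb11, Psmb5 and Psmd11.

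The alpha ring showed one clear departure, at day 21. The family had a median difference of -0.12 at day 21, -0.04 at day 35, -0.07 at day 45, -0.06 at day 55 and 0.02 at day 70. Psma2, one of the alpha ring subunits, read 0.88 in the control, 0.41 at day 21, 0.81 at day 35, 0.69 at day 45, 1.03 at day 55 and 0.97 at day 70. The day 21 array was the lowest of the 6, with a difference of -0.47 or 0.72 times the control, and the value at day 35 was back near the control. This difference lay between -0.48 and -0.47 under the alternatives of scaling, background correction, values and baseline. The rest of the 9 alternatives return the same value, as Psma2 has 1 probe of 1 spot.

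Psma4 was opposite to Psma2 at day 21, with levels of 2.80, 3.0, 2.82, 2.66, 2.78 and 2.82 on the control, day 21, 35, 45, 55 and 70 arrays. It was highest at day 21, by 0.20, and lowest at day 45. Psma7 read 2.82, 2.69, 2.87, 2.77, 2.62 and 2.78 on the same arrays, with its low points at days 21 and 55. Psma6 was among the flattest members, with a range of 0.11, and Psma5 had a range of 0.12. Psma1 differed from the control by -0.20 at both day 21 and day 55, and Psma3 by at most 0.13 in size. The Psma3l probe outside the naming rule read 1.48, 1.55, 1.48, 1.51, 1.65 and 1.53.

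In the beta ring, the cutting subunits moved by different amounts. Psmb5, which carries the chymotrypsin-like site, read 3.02 in the control, 3.06 at day 21, 3.18 at day 35, 2.92 at day 45, 2.70 at day 55 and 3.11 at day 70. Its lowest array was day 55, at -0.32 or 0.799 times the control, and within the second slide it was 0.41 higher at day 70 than at day 55. Median centring brought the day 55 difference to -0.24. Psmb6, with the caspase-like site, read 0.93, 0.80, 0.90, 0.95, 0.91 and 1.02, so it was lowest at day 21 and highest at day 70 with all values within 0.22. Psmb7, with the trypsin-like site, read 1.33, 1.04, 1.25, 1.32, 1.16 and 1.25, lowest at day 21 at -0.29 or 0.82 times the control. That difference was between -0.29 and -0.20 over the alternatives.

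Psmb1, a structural beta subunit, read 0.87, 0.77, 1.05, 0.92, 0.72 and 0.94 in array order. It was highest at day 35 and lowest at day 55. Psmb3 had its highest value at day 45, 0.26 above the control, just short of the 1.2-fold boundary, and Psmb4 its highest at day 35, 0.22 above the control. At day 35 the beta family had a median difference of 0.16, compared with -0.04 for the alpha family, but its members were split. Psmb1, Psmb3, Psmb4 and Psmb5 were each 0.16 to 0.22 above the control, as was the dim Psmb11 at 0.17. Psmb2, Psmb6 and Psmb7 were at 0.01, -0.03 and -0.07.

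Psmb11 encodes the beta subunit of the thymoproteasome, a form known from thymic epithelium, and it was dim in the hippocampus. One probe was well above background on all 6 arrays and read -3.87, -3.31, -3.70, -3.97, -3.49 and -3.93. It was highest at day 21, by 0.56, and next highest at day 55, by 0.38, which normexp background correction lowered to 0.21. The other probe was well above background only at days 55 and 70, where it was at least 1.5-fold and 1.62-fold higher than the control's bound. The probes disagreed at day 70, where the first read -0.06 relative to the control.

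The ATPase ring of the regulatory particle was the most even family, with all its probes within a range of 0.34. Its median difference was -0.12 at day 21, 0.08 at day 35, 0.02 at day 45, -0.04 at day 55 and 0.04 at day 70. Psmc3 read 1.76 in the control, 1.57 at day 21, 1.90 at day 35, 1.88 at day 45, 1.56 at day 55 and 1.81 at day 70. The day 21 and day 55 arrays stood apart below the other 4. Psmc4 read 0.28, 0.12, 0.39, 0.36, 0.25 and 0.32, also lowest at day 21. Psmc6 read 0.21, -0.06, 0.19, 0.23, 0.18 and 0.17, with day 21 alone below 0, a difference of -0.26 that lay between -0.27 and -0.21 over the alternatives. Psmc2 had the smallest range of any member, 0.09, and Psmc5 was the only ATPase above the control at day 21, by 0.06.

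The non-ATPase subunits included the member with the largest range. Psmd11, a scaffold subunit of the lid, read -1.68 in the control, -1.39 at day 21, -1.86 at day 35, -1.99 at day 45, -2.08 at day 55 and -2.04 at day 70. Day 21 was the highest array, 1.23 times the control, and the days from 35 on were lower than the control, down to 0.762 times at day 55. Both slides therefore held values below the control for this gene. The day 45 difference of -0.31 was within 1.2-fold under 5 of 9 alternatives. The rest of the 9 cannot change the value of this gene, which has 1 probe of 1 spot. Against the mean of the 5 other arrays, in place of the control, Psmd11 was at -0.18 at day 45 and -0.24 at day 70. The day 70 difference from the control was -0.36.

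Psmd13, another lid subunit, read 0.47, 0.34, 0.62, 0.64, 0.18 and 0.54. It was lowest at day 55, 0.82 times the control and 0.728 times day 45 on the same slide. Psmd3, also of the lid, read 0.10, -0.16, 0.14, 0.25, -0.11 and 0.16, below 0 at days 21 and 55 only. Psmd14, the lid's deubiquitinase, was lowest at day 21, at -0.22, and was 0.34 higher at day 35 than at day 21. Psmd1 and Psmd2, the large scaffold subunits of the base, had ranges of 0.13 and 0.11. The ubiquitin receptor Psmd4 ranged over 0.22.

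Psmd5, Psmd9 and Psmd10 are assembly chaperones of the base that share the family's name but are not part of the finished particle. Psmd5 was lowest in the control and differed from it by 0.03 to 0.13. Psmd10 was highest at day 55, by 0.25. The probes of Psmd9 disagreed at day 21, at 0.17 and -0.15, and both were lowest at day 55, at -0.13 and -0.31. Without Psmb11 and these chaperones the core median minus the regulatory median lay between -0.04 and 0.01 over the 5 days. That exclusion was chosen after seeing the data. With all members it was -0.02, -0.02, -0.08, -0.01 and 0.01 at days 21, 35, 45, 55 and 70.

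**Figure D3:**
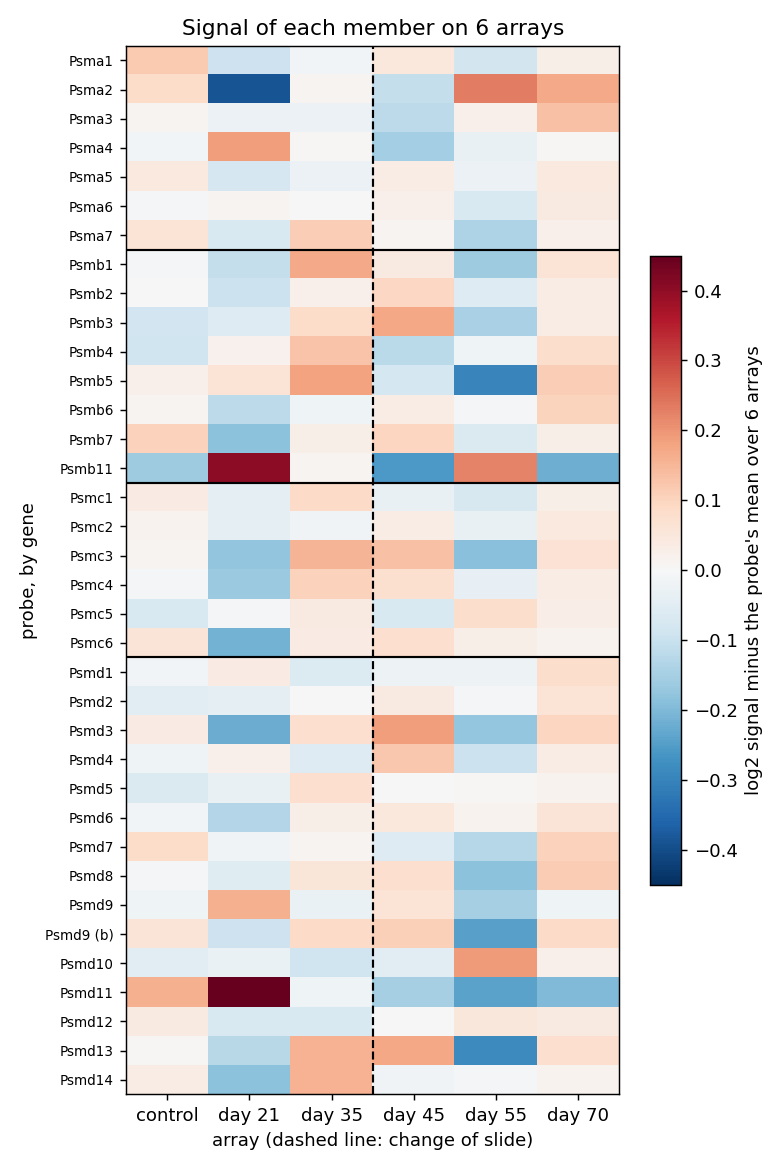
Log2 signal of each member on each array minus that probe's mean over the 6 arrays, for the 36 probes well above background on all of them, ordered by family, with the change of slide dashed. The day 21 and day 55 columns are mostly blue, that is, below the probe's mean, with Psmd11 and Psmb11 the deepest red cells at day 21.

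Core and regulatory medians were close on most days and farthest apart at day 45, where core minus regulatory was -0.08. With normexp background correction that difference ran from -0.10 to 0.06 over the days. The core medians were -0.10, 0.01, -0.03, -0.06 and 0.06 at days 21, 35, 45, 55 and 70, and the regulatory medians -0.08, 0.04, 0.05, -0.05 and 0.05. Core members above the control numbered 6 of 15, 9 of 15, 5 of 15, 5 of 16 and 12 of 16, and regulatory members 8, 12, 14, 6 and 16 of 21. Over both particles, 14 of 36, 21 of 36, 19 of 36, 11 of 37 and 28 of 37 members were above the control, against 41.2, 41.9, 34.6, 40.2 and 40.1% of all probes. Among the bright probes the shares were 45.5, 52.3, 53.2, 49.7 and 62.7%. The counts out of 16 and 37 include the dimmer Psmb11 probe, which entered only at days 55 and 70 and was above the control on both. Over the 36 members well above background on all 6 arrays, 10 and 27 were above the control on those days. The counts depended on scaling on all 5 days. Quantile normalization gave 9, 19, 24, 12 and 21 members above the control, with 42.4, 50.9, 53.0, 53.6 and 53.5% of all probes and 41.0, 49.3, 55.0, 50.8 and 50.4% of the bright probes. Median centring gave 14 members at day 21 and 30, 31, 23 and 36 at days 35, 45, 55 and 70, where 55.4, 54.2, 53.9 and 56.8% of all probes and 71.2, 84.5, 71.0 and 86.2% of the bright probes were above the control.

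Within the first slide, most members were lower at day 21 than at day 35. The median of day 35 minus day 21 was 0.11, and 28 of 36 members were above 0, compared with 51.2% of all probes and 54.2% of the bright probes. All 6 ATPase probes and all 7 beta probes other than Psmb11 were higher at day 35. Quantile normalization gave 29 of the 36, against 55.7% of all probes and 55.8% of the bright probes. Median centring gave 31, against 60.9 and 66.1%. The exceptions included Psmd11, at -0.47, and Psma4, at -0.18.

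Within the second slide, day 55 was the low array. The counts out of 37 include the dimmer Psmb11 probe, well above background only at days 55 and 70, which was above 0 in each. It was at 0.41 for day 55 minus day 45 and 0.52 for day 70 minus day 45, both bounds, and 0.11 for day 70 minus day 55. The median of day 55 minus day 45 was -0.07, with 11 of 37 members above 0 against 59.6% of all probes and 49.3% of the bright probes. The median of day 70 minus day 55 was 0.10, with 31 of 37 above 0 against 47.1% of all probes and 65.6% of the bright probes. For that step quantile normalization gave 28, against 48.9% of all probes and 50.8% of the bright probes. Median centring gave 33, against 50.6 and 70.4%. Day 70 minus day 45 had a median of 0.02 with 24 of 37 (64.9%) above 0 against 57.3% of all probes and 61.2% of the bright probes. Quantile normalization gave 13, against 46.2% of all probes and 45.8% of the bright probes. Median centring gave 15, against 50.9 and 51.7%, so no direction between those days held over the scalings.

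Sorted by the array on which each of the 36 members was lowest, 14 had day 55 and 13 had day 21, against 13.6 and 27.4% of all probes and 16.9 and 34.4% of the bright probes. The share for day 21 was thus near that of the bright probes. None had day 70 as its lowest array, which 11.1% of all probes and 2.67% of the bright probes did. The highest array was day 70 for 10 members, day 35 for 9 and day 45 for 7, against 11.0, 15.5 and 10.5% of all probes and 17.8, 15.1 and 13.8% of the bright probes. Counted after this pattern had been seen, 25 of 36 members were lower at day 55 than on both other arrays of its slide, 10 of 15 core and 15 of 21 regulatory, compared with 31.3% of all probes and 42.9% of the bright probes. The count was 23 to 28 over the other scalings, against 28.4 to 37.9% of all probes and 36.2 to 53.6% of the bright probes. At day 21, 22 of 36 members were below both the control and day 35, against 43.5% of all probes and 44.8% of the bright probes, and 17 members had both low points, against 17.9 and 23.5%. These were Psma1, Psma5, Psma7, Psmb1, Psmb2, Psmb6, Psmb7, Psmc1, Psmc2, Psmc3, Psmc4, Psmd3, Psmd6, Psmd7, Psmd8, Psmd13 and 1 probe of Psmd9.

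The size of these low points was near the technical limit for single spots. Psma5, Psmb2, Psmd6 and Psmd12 were printed 10 times per array and so had the best technical precision. At day 21 they differed from the control by -0.12, -0.10, -0.13 and -0.11, with standard errors between spots of 0.018, 0.025, 0.027 and 0.024. These errors cover spots of 1 array and leave out the spread between animals, labelling reactions and arrays. On the second slide, day 55 minus day 45 was -0.06, -0.14, -0.03 and 0.04 and day 70 minus day 55 was 0.07, 0.09, 0.04 and -0.01, so all but Psmd12 were lowest at day 55 on that slide.

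The constitutive cutting subunits and their immunoproteasome replacements parted at day 21. Psmb9 read -0.98 in the control, -0.02 at day 21, -1.29 at day 35, -1.19 at day 45, -1.15 at day 55 and -1.02 at day 70, so day 21 alone stood high. It was 0.96 higher than the control there while its constitutive partner Psmb6 was at -0.13, and the ratio of the Psmb9 to the Psmb6 signal was 2.13 times its control value. Psmb8 read -2.96, -2.05, -2.93, -3.05, -3.26 and -2.97, 0.91 higher at day 21, where its partner Psmb5 was at 0.04 and the ratio was 1.83 times the control's. Psmb10 read 2.16, 2.57, 2.16, 2.21, 2.22 and 2.34, 0.41 higher at day 21, where Psmb7 was at -0.29 and the ratio was 1.62 times the control's.

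By day 35 the ratios stood at 0.828, 0.913 and 1.05 times the control for Psmb9 to Psmb6, Psmb8 to Psmb5 and Psmb10 to Psmb7. From day 45 to day 70 they lay between 0.855 and 1.19 times the control. The day 21 differences kept their direction under the alternatives of scaling, background correction, values and baseline. They lay between 0.92 and 1.1 for Psmb9, 0.78 and 0.99 for Psmb8, and 0.35 and 0.41 for Psmb10. The rest of the 9 alternatives cannot change these genes, each with 1 probe of 1 spot. At that day 3 of 3 immunoproteasome genes were above the control, as were 14 of 36 constitutive members and 41.2% of all probes. With quantile normalization 9 constitutive members and 42.4% of all probes were above it.

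**Figure D4:**
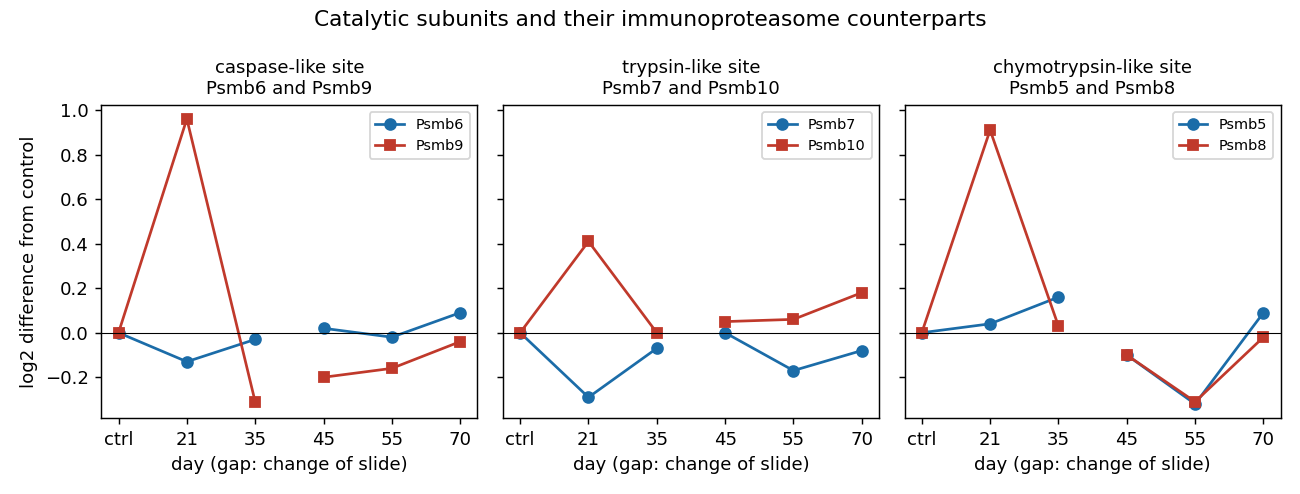
Log2 difference from the control array for each constitutive catalytic subunit (circles) and its immunoproteasome counterpart (squares), by day, with a gap at the change of slide. At day 21 Psmb9, Psmb8 and Psmb10 stand at 0.96, 0.91 and 0.41 while Psmb6, Psmb5 and Psmb7 stand at -0.13, 0.04 and -0.29.

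Markers of several other cell types also differed on the day 21 array, some higher and some lower. Each marker was read on its brightest probe. All 9 of 9 microglial markers were above the control, with a median difference of 1.32 and a summed signal of 2.54 times the control. Csf1r was at 0.44 on that probe but at -0.22 on its other probe, whereas the other probes of Aif1, Tmem119 and Itgam were also above the control. At the other days the summed microglial signal was 0.90 to 1.09 times the control. Of 6 choroid plexus markers, 6 were above the control at days 21 and 35, with medians of 2.70 and 1.83, and 5 at day 70, with a median of 2.19 and Clic6 at 0.431 times the control. Ttr gave 90.6 to 98.6% of their summed signal and was saturated at day 21, where it was at least 17.6-fold higher. The summed signal of the other 5 was 4.07 times the control at day 21, 2.21 at day 35, 0.769 at day 45, 1.26 at day 55 and 2.76 at day 70, a sum without Ttr that was chosen after seeing the data. Of meningeal and fibroblast markers, 5 of 5 were above the control at day 21, with a summed signal of 2.72 times the control, and at the other days it was 0.791 to 0.954 times. None of 6 neuronal markers was above the control at day 21, with a median of -0.22 and a summed signal of 0.885 times. The summed neuronal signal was 0.943 to 1.00 times the control on the other arrays, day 55 included at 0.971. All 6 astrocyte markers were above the control at day 21, with a summed signal of 1.29 times, as were 4 of 5 oligodendrocyte markers, with 1.22 times. Endothelial and pericyte markers went the other way, with 1 of 6 above the control, 5 past 1.2-fold lower, a median of -0.37 and a summed signal of 0.824 times, which was also 0.824 times at day 35 and 0.833 to 1.03 times on the second slide. The summed signal of 4 red blood cell markers was lowest at day 45, at 0.57 times. The neuronal, microglial and astrocyte markers were well above background on all 6 arrays. The choroid plexus markers Kcnj13, Sostdc1 and Clic6, the meningeal marker Lum and the endothelial marker Tek were so on only 4. The Tek difference of -0.33 at day 21, counted among the 5 past 1.2-fold lower, is a bound. The part of these cell types in the proteasome values was not tested.

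Other genes of the pathway were read from lists drawn up by role. Among the activators that can replace the regulatory particle, Psme1 and Psme2, the subunits of the interferon-inducible PA28 cap, were 0.66 and 0.39 above the control at day 21 and within 0.13 of it on the later arrays. Psme4, encoding the PA200 cap, was at -1.28 at day 35 on its brightest probe and -0.33 on its other probe, so the size there is uncertain. Over the 5 activator and inhibitor genes, 2 were past 1.2-fold higher and 0 lower at day 21, and 0 higher and 1 lower at day 35, where 17.6 and 23.9% of all probes were past it at day 21 and 8.57 and 19.7% at day 35.

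The 5 chaperones that assemble the core had 0 genes past 1.2-fold higher on any day, against 4.56 to 17.6% of all probes. At day 21, 2 were past 1.2-fold lower, Psmg3 at -0.31 and Psmg2 at -0.29, against 23.9% of all probes, and at day 55 Psmg3 was at -0.39. Pomp, which matures the beta ring, was within 0.14 of the control. Of 8 further base-associated factors 6 were found on the array, and their medians lay between -0.01 and 0.13. Adrm1, a ubiquitin receptor of the base, was the exception, at 0.70 on day 55 and within 0.14 on the other days. Its 1 probe was dim, at -3.03 in the control, and 8.94% of all probes were past 1.2-fold higher at day 55.

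The transcription factors and enzymes that set subunit expression gave no common direction. Nfe2l1, which drives proteasome genes when proteasome activity falls short, was between -0.18 and -0.05 relative to the control at all 5 days. Nfe2l2, the oxidative stress factor, was 0.51 above the control at day 21 and 0.12 to 0.21 above it afterwards. Ddi2, the protease that releases Nfe2l1, was at -0.31 at day 21, -0.46 at day 45 and 0.24 at day 55. Its probe was dim, at -3.08 in the control. Of the 4 genes, 1 was past 1.2-fold higher and 1 lower at day 21, against 17.6 and 23.9% of all probes.

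Among the shuttle factors and segregase subunits that carry substrates to the proteasome, the probes of Ubqln4 disagreed. At day 35 its brightest probe was at 0.31 and its other probe at -0.24, so the direction is uncertain. Sqstm1, an adaptor that also serves autophagy, was at -0.15 at day 21 and -0.25 at day 55.

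Promoters were read from RefSeq (GRCr8), as 250 bases upstream of the start, for 30 of the 35 constitutive genes and for all 3 immunoproteasome genes. The promoters of Psmb5 and Psmb10 are shown as examples of a constitutive and an immunoproteasome gene that hold the letters marked below. The genes are not partners. Capitals mark TGACNNNGC, the core letters of the antioxidant response element bound by Nfe2l1 and Nfe2l2, in Psmb5, and, in Psmb10, GAAA, any 2 bases and GAAA, the letters of an interferon-stimulated response element. The letters stand 60 bases before the start in Psmb5 and 73 and 17 bases before it in Psmb10. The promoters of Psmb7, Psmb8 and Psmb9 held neither set of letters.
Psmb5, chr15:32047380-32047629, minus strand: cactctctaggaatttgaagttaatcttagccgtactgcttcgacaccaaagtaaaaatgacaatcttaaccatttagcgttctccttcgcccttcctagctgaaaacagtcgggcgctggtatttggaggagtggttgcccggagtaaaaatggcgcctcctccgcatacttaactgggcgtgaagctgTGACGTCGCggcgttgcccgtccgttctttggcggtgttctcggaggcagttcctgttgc
Psmb10, chr19:50743293-50743542, minus strand: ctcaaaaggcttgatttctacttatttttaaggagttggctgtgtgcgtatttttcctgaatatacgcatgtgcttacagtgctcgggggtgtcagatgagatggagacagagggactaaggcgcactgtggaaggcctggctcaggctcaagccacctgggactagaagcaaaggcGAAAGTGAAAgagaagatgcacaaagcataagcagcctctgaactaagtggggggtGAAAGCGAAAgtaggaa

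Searched on both strands, TGACNNNGC was present in 6 of 30 constitutive promoters, namely those of Psma3, Psmb2, Psmb5, Psmb6, Psmd1 and Psmd9, and in 10.2% of 27457 promoters of the same length. The interferon-stimulated response element was present in 3 of 30, those of Psma4, Psmb3 and Psmd7, against 3.29% of all, and in 1 of 3 immunoproteasome promoters. The constitutive promoters held CCGGAAG, an ETS factor site, in 9 of 30 against 7.74% of all. They held CCAAT in 16 of 30 against 34.3%, and the GC box GGGCGG in 21 of 30 against 32.4%. They also had more CpG dinucleotides than the median promoter, 14.5 against 6.0, with 55.0 against 52.0% GC, and the part of base composition in these shares was not tested. None of the 5 motifs contains another, a match is a description of letters, and none was set against the expression values.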

How the data were processed

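The authors deposited, per the file headers, Agilent Feature Extraction 10.7.3.1 output of 1-colour arrays (design 028282, rn4) with background-subtracted spot intensity, and a value table of 41507 rows whose intensity columns have medians of 298.0 to 298.4 and follow mean minus background signal (rank correlations of 0.9998 and above). How that table was scaled is not stated. The dye label says Cy5, whereas the files hold the green channel.

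Outlier spots were left out (346 to 470 of 42877 per array), spots of a probe averaged, log2 taken and the array's 75th percentile subtracted. A difference needed a probe well above background on at least 1 of its 2 arrays. A dim side was set to that array's lowest such signal or the probe's own if higher, and "at least" marks the bound. The number of arrays limits the precision. Scripts were tested on simulated data.

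Full values are given for the 3 widest-ranging genes per family and the catalytic pairs. Members, lists and alternatives were chosen with earlier results of these data known, and the motifs after expression had been seen. Genes were matched to RefSeq (GRCr8). Alternatives changed the baseline, scaling, background correction (limma 3.58.1, R 4.3.3, offset 50), values, filter and probes per gene. For an unsaturated gene with 1 probe of 1 spot, well above background on all 6 arrays, only the first 4 of these can change a difference. Some genes of the pathway lists are not reported here.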

Additional observations from a re-analysis of the deposited data

How the results depend on the processing

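No paired analysis was possible because each group had 1 array, and replicates could not be left out. Of the summary values under 9 planned and 2 later alternatives, chosen after seeing the data, 235 stayed within the technical SD of 0.082 or 1.5 times the count and 18 moved, among them immunoproteasome medians near 0 that changed sign. The cause was not tested. That SD is about as large as most of the medians, so a changed sign can count as having stayed. The core median at day 55 went from -0.06 to 0.02 with median centring and was counted so. Leaving out saturated probes could change nothing, as 0 members were saturated. The 235 is thus no measure of stability. Members above the control at day 21 numbered 9 with quantile normalization, against 14, with 42.4 and 41.2% of all probes above it. When each array was set against the mean of its 5 companions, 9 members were above that mean at day 21, with 53.4% of all probes. Median centring gave 31 members at day 45 and 23 at day 55, against 54.2 and 53.9% of all probes. It also gave core medians of 0.10 and 0.15 and regulatory medians of 0.18 and 0.14 at days 45 and 70, and immunoproteasome medians of 0.02 and 0.08. The immunoproteasome median was 0.06 and 0.14 at days 45 and 70 with quantile normalization, 0.08 and 0.14 with the authors' values, 0.78 at day 21 with normexp, and -0.14, -0.22 and -0.25 at days 35, 45 and 55 against that mean. For single genes 674 values stayed and 91 moved, and several alternatives cannot change a gene with 1 probe of 1 spot. A single array per group limits every value.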
